A study of Mus musculus with 6 samples.

Results

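The 10 genes described here belong to the IL-1 and IL-6 cytokine families or lie close to them in function, and were followed across 3 kinds of cultured mouse cells by RNA sequencing. They are Il1a, Il1b, Il1rn, Il33 and Il1rl1 of the IL-1 family, Il6, Il11 and Lif of the IL-6 family, and Csf3 and Tnf. They were found by matching their symbols to the NCBI gene numbers of the deposited tables, which list 18305 genes. All 10 passed the filter on low counts, as did 14581 genes in all. For Il1a and Csf3, LC libraries alone carried the gene through the filter.

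CiLC were embryonic fibroblasts of KM mice to which small molecules were added 24 h after seeding. The compounds are not named in the labels. LC were Leydig cells, which make testosterone in the testis interstitium, taken from testes of KM mice and kept for 0 to 1 passages. MEF were KM fibroblasts from embryos of 12.5 or 13.5 days, labelled without induction, and MEF and CiLC were both at passages 3 to 5. Each group had 2 libraries. The series set the groups side by side to ask how closely CiLC resemble LC. Whether the libraries of one group had different source cultures or animals is not stated, so p-values reflect only how far these libraries differ, and that spread may be technical.

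IL-1 alpha, IL-1 beta and IL-33 bind receptors that use Il1rap as a shared partner and signal through MyD88 to NF-kB. IL-1 alpha and IL-1 beta act on the same receptor, Il1r1, and the antagonist encoded by Il1rn occupies it without signalling. IL-33 is a nuclear protein released on cell damage, and Il1rl1 encodes its receptor ST2. IL-6, IL-11 and LIF each pair a specific receptor with gp130, encoded by Il6st, and signal through JAK kinases to STAT3. In the testis, macrophages lie against Leydig cells, and IL-1 and TNF are known to act on steroid production there.

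The libraries held 18442400 to 18944300 estimated reads. Levels are reads scaled to a common library total (CPM), over TMM-scaled library sizes, given as mean ± SD of 2 libraries where an SD is printed. The 7 Leydig markers summed to 144 to 148 CPM in CiLC, 1081 to 1109 CPM in LC and 7.55 to 9.40 CPM in MEF. Cyp17a1 and Lhcgr were near 0 in all groups, LC included, with at most 1 and 3 reads in a library. The 13 macrophage markers were present with at least 10 reads in every library. They summed to 11812 to 11984 CPM in CiLC, 4652 to 5019 CPM in LC and 7948 to 8007 CPM in MEF. Most of the CiLC sum was Lyz2, with 7571 CPM in CiLC, 2554 CPM in LC and 2660 CPM in MEF. These bulk cultures therefore held macrophage transcripts, and fewer cells of a type cannot be told apart from less RNA per cell. The 5 fibroblast markers summed to 18398 to 18502 CPM in CiLC, 18639 to 19341 CPM in LC and 23323 to 24198 CPM in MEF. Relative to MEF, Pdgfra and Dcn were 5.91-fold and 2.47-fold higher in LC, Col1a1 and Col1a2 were 1.49-fold and 1.3-fold lower, and Thy1 was 68.9-fold lower.

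Between CiLC and MEF, 5 of the 10 genes were lower in CiLC (Il1b, Il1rn, Lif, Il33 and Tnf), 1 was higher (Csf3, at very few reads) and 4 were not called. A call is an adjusted p under 0.05 from edgeR's quasi-likelihood test over all genes. Of all genes tested, 25.5% were called lower and 26.1% higher in CiLC than in MEF. The median log2 fold change was -0.40 over the 10 genes and 0.01 over all genes tested. In that comparison 4 macrophage markers were called higher, 5 lower and 4 were not called.

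Between LC and MEF, 7 genes were higher in LC (Il1a, Il1b, Il1rn, Il6, Il11, Lif and Csf3) and 3 were lower (Il33, Il1rl1 and Tnf). Il1a and Csf3 passed the filter only through LC libraries. Their calls as higher in LC were thus favoured in advance. They raise both the count of 7 and the median given here, which was not computed without them. Of all genes tested, 35.7% were called higher and 35% lower in LC. The median log2 fold change was 1.38 over the 10 genes, against -0.01 over all genes tested. Macrophage markers went mostly the other way, with 9 of 13 lower and 2 higher in LC, and their part in the cytokine differences was not tested.

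Between CiLC and LC, the same 7 genes were lower in CiLC and the same 3 were higher. Of the 7, Il1a and Csf3 again passed the filter only through LC libraries. Including them raises that count and makes the median given here lower. Here 35.6% of all genes tested were called lower and 35% higher in CiLC. The median log2 fold change was -2.71 over the 10 genes and 0.005 over all genes tested. Of 13 macrophage markers, 11 were higher and 2 lower in CiLC. The 3 comparisons share their libraries pairwise, so their counts are not independent of each other.

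**Figure D1:**
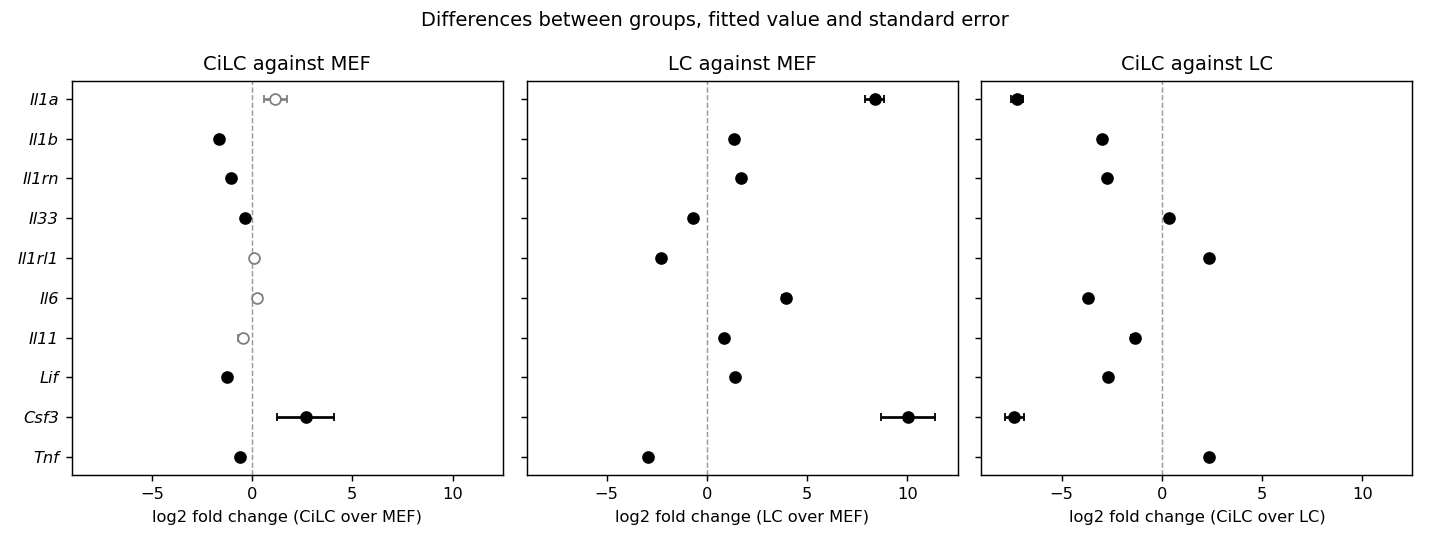
Fitted log2 fold change of each gene with its standard error in the 3 comparisons (x axis, first group over second), with filled points for genes called by edgeR and open points for the others. In CiLC against MEF the points lie between -1.63 for Il1b and 2.68 for Csf3, whereas in LC against MEF they run from -2.95 for Tnf to 10.04 for Csf3.

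Stretches before the transcription starts are shown for the genes whose promoter windows held an AP-1 motif. All 5 were higher in LC than in MEF, as was Il1b, whose window held no such motif, and the other 3 genes with a window were lower in LC. Sequences are from RefSeq for the build GRCm38.p6, which is not the build of the counts (mm9). A window runs from 250 bases before a start to 50 after it, and 9 of the 10 genes had at least 1 window. The capitals mark the AP-1 motif TGANTCA, which is its own reverse complement, so both strands were covered.
Il1a: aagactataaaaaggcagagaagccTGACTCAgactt
Il1rn: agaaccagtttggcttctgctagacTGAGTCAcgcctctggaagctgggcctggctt
Il6: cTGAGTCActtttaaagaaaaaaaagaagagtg
Il11: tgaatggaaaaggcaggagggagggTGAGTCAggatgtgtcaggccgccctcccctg
Lif: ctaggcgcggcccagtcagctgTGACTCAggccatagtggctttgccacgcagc
These lie at chr2:129309973-129310009 on the minus strand (Il1a), chr2:24336694-24336750 on the plus strand (Il1rn, 1 of 3 starts), chr5:30012864-30012896 on the plus strand (Il6), chr7:4778208-4778264 on the minus strand (Il11, 1 of 2 starts) and chr11:4257318-4257371 on the plus strand (Lif). The motif began 12 bases before the start in Il1a, 98 in Il11, 141 in Il1rn, 228 in Lif and 249 in Il6. It was found in 5 of 9 genes with a window, and in 8.97% of 27025 genes with windows of the same length. The 9 genes had 14 windows, and the 27025 genes had 32851, of which 7.81% held the motif. A gene with more starts had more chances of a match, and the difference in shares was not tested.

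The Il6 window also held a C/EBP motif (TTGCNNAA, searched on both strands) and the NF-kB motif, which are the capitals in this stretch at chr5:30012981-30013084 on the plus strand.
Il6: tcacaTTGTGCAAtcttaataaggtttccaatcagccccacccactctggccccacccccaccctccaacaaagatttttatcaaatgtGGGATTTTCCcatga
Il6 was the only one of the 9 genes with the NF-kB motif, which 5.14% of all genes held. A C/EBP motif of the same 8 letters was found before a start of Il33 and of its receptor gene Il1rl1, shown because both genes were lower in LC than in MEF.
Il33: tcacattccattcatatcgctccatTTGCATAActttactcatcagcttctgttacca
Il1rl1: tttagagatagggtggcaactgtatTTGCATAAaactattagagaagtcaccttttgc
These lie on the plus strand at chr19:29945680-29945737 (Il33, 1 of 2 starts) and chr1:40429511-40429568 (Il1rl1, 1 of 2 starts). The C/EBP motif was found in 3 of 9 genes and in 12.2% of all genes. It did not follow the direction of change, as Il6 was higher in LC than in MEF, and Tnf, lower in LC, had none. The STAT motif TTCNNNGAA, which 9.55% of all genes held, was in no window of the 9 genes, which says only that these letters are not in the windows. A match is a description of sequence and was not tested as a binding site.

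Il1a, which encodes the cell-associated agonist IL-1 alpha, was far higher in LC than in the other cultures. It had 14 and 7 reads in CiLC, 1351 and 1396 reads in LC, and 6 and 3 reads in MEF. In CPM that was 0.534 ± 0.253 in CiLC, 80.3 ± 2.72 in LC and 0.235 ± 0.112 in MEF. LC libraries stood far above all others, and the CiLC and MEF libraries lay close together without overlap. Only LC libraries carried Il1a through the filter, so its calls as higher in LC were favoured in advance. Their adjusted p-values are not independent support. Scaled for library size, the ratio of LC to MEF reads was 341 (exact 95% counting interval 180 to 747) and the log2 fold change was 8.37 ± 0.47 SE (edgeR adjusted p = 1.15e-22). On the same scale CiLC had 150 times less than LC (counting interval 98.2 to 243; edgeR adjusted p = 1.89e-22). CiLC and MEF were not called apart (scaled ratio 2.27, counting interval 0.996 to 5.63; edgeR adjusted p = 0.0726), although the gene was called higher in CiLC without CiLC replicate 2 (adjusted p = 0.0316, with a range of 0.0316 to 0.975 over 14 settings). That fit holds 1 CiLC library, which is assumed to vary like the libraries of the other groups.

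Il1b, which encodes the secreted agonist IL-1 beta, had 69 and 65 reads in CiLC, 474 and 449 in LC, and 199 and 204 in MEF. The groups did not overlap, with LC libraries highest and CiLC libraries lowest. At 3.40 ± 0.152 CPM in CiLC against 10.5 ± 0.132 CPM in MEF, it was 3.09-fold lower in CiLC (log2 fold change -1.63 ± 0.14 SE, edgeR adjusted p = 3.03e-10). Its level of 27.0 ± 0.745 CPM in LC was 2.56-fold above MEF (edgeR adjusted p = 5.06e-12). In CiLC it was 7.91-fold lower than in LC (edgeR adjusted p = 8.67e-17).

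Il1rn, the gene of the receptor antagonist, followed the same order of groups as Il1b. It had 23.4 and 22.6 CPM in CiLC, 155 and 156 CPM in LC, and 49.3 and 47.5 CPM in MEF, again without overlap. The gene fell 2.11-fold in CiLC relative to MEF (log2 fold change -1.07 ± 0.07 SE, edgeR adjusted p = 1.49e-12) and rose 3.22-fold in LC relative to MEF (edgeR adjusted p = 1.1e-18). It was 6.77-fold lower in CiLC than in LC (edgeR adjusted p = 9.55e-22). Its estimated reads were not whole numbers in 5 of 6 libraries, so part of them was assigned by estimation.

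**Figure D2:**
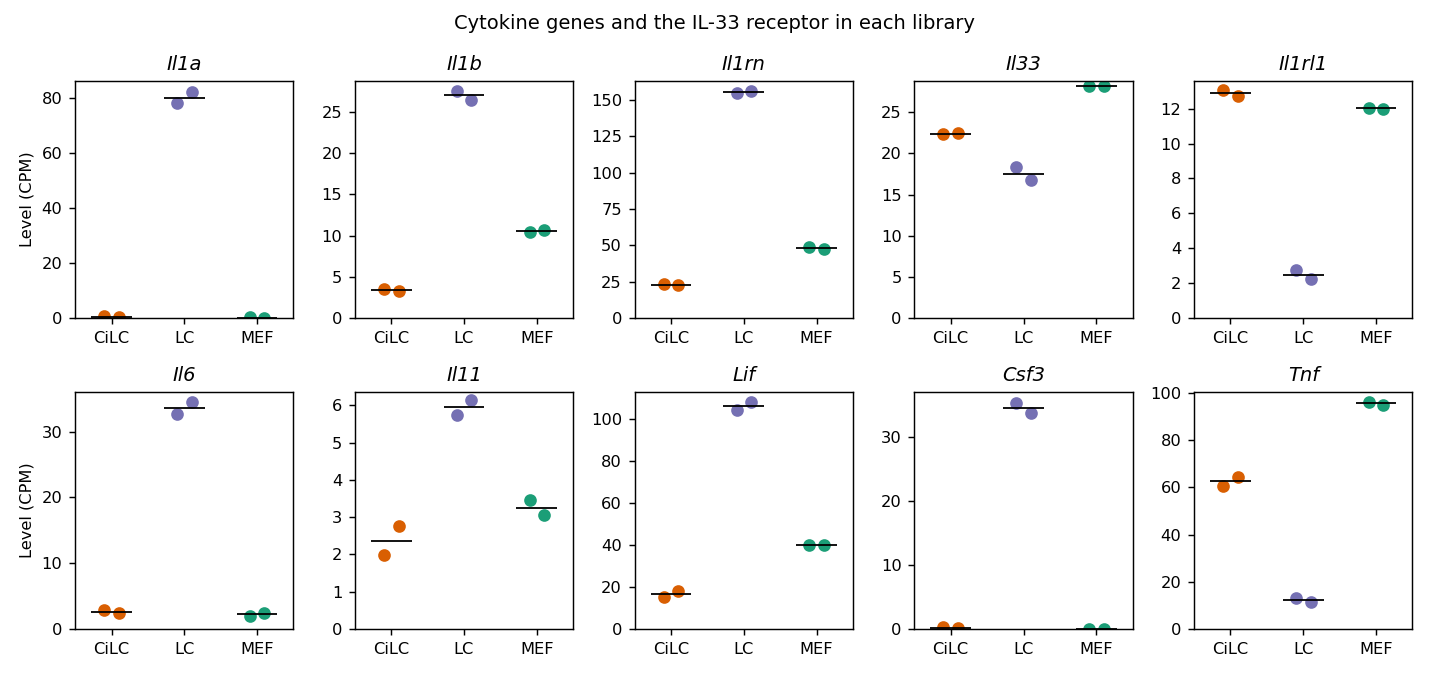
Level of each of the 10 genes in CPM (y axis, linear from 0) in the 2 CiLC, 2 LC and 2 MEF libraries, with points for libraries and a line for the group mean. LC points lie highest for Il1a, Il1b, Il1rn, Il6, Il11, Lif and Csf3, and lowest for Il33, Il1rl1 and Tnf.

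The balance of the IL-1 genes differed between cultures in 2 ways that do not depend on library scaling. Il1a made up 16.9% and 9.72% of Il1a and Il1b reads in the CiLC libraries (exact 95% binomial intervals 9.54% to 26.7% and 4% to 19%). It made up 74% and 75.7% in the LC libraries (72% to 76% and 73.6% to 77.6%), and 2.93% and 1.45% in the MEF libraries (1.08% to 6.26% and 0.3% to 4.18%). Most IL-1 agonist reads were thus from Il1a in LC and from Il1b in CiLC and MEF. Reads were not divided by transcript length, so the shares are read across libraries and not as molecules, and the intervals cover counting error only.

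Antagonist reads per agonist read were 5.54 and 6.20 in CiLC, 1.46 and 1.44 in LC, and 4.59 and 4.41 in MEF, counting Il1a and Il1b together as agonists. LC libraries were lowest and CiLC libraries highest, with no overlap. Against Il1b alone, Il1rn gave 6.66 and 6.87 reads per read in CiLC, 5.64 and 5.92 in LC, and 4.72 and 4.47 in MEF. By that measure LC libraries lay between the other groups, so the low value of LC rested on Il1a. Ratios of 2 libraries a group were not tested.

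**Figure D3:**
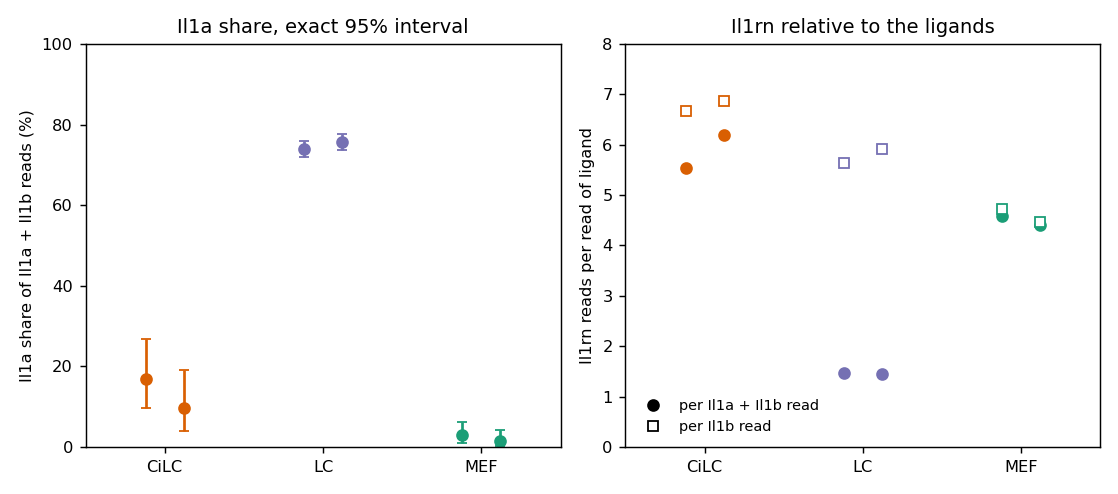
Left, Il1a share of Il1a plus Il1b reads in percent with exact 95% intervals in the CiLC, LC and MEF libraries; right, Il1rn reads per agonist read, counted over Il1a plus Il1b (filled circles) or over Il1b alone (open squares). The LC libraries have Il1a shares of 74% and 75.7%, and their Il1rn ratio moves to 1.46 and 1.44 when Il1a is counted.

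Il33 encodes an alarmin that fibroblasts and endothelium store in the nucleus. It had 22.3 and 22.5 CPM in CiLC, 18.3 and 16.7 CPM in LC, and 28.2 and 28.2 CPM in MEF. Groups did not overlap, with MEF highest and LC lowest. The differences were small: 1.26-fold lower in CiLC than in MEF (log2 fold change -0.33 ± 0.07 SE, edgeR adjusted p = 0.000606), 1.61-fold lower in LC than in MEF (edgeR adjusted p = 5.5e-08) and 1.28-fold higher in CiLC than in LC (edgeR adjusted p = 0.000521). Both differences that involve CiLC were lost when the biological coefficient of variation was set to 0.1 (adjusted p = 0.107 against MEF and 0.0555 against LC). Over 15 settings the adjusted p ran from 0.000207 to 1 against MEF and from 4.44e-05 to 0.955 against LC.

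Il1rl1, the gene of the IL-33 receptor ST2, is expressed by mast cells and some lymphocytes, among other cells. In mouse it has separate starts for membrane-bound and soluble forms. It had 256 and 251 estimated reads in CiLC, 47.2 and 37.8 in LC, and 229.8 and 231 in MEF. LC libraries were far lower, while CiLC libraries lay just above MEF libraries. The gene was 4.84-fold lower in LC than in MEF (log2 fold change -2.27 ± 0.16 SE, edgeR adjusted p = 1.84e-12) and 5.18-fold higher in CiLC than in LC (edgeR adjusted p = 6.78e-13). CiLC and MEF were not called apart (log2 fold change 0.10 ± 0.10 SE, edgeR adjusted p = 0.45). Gene counts do not separate the 2 forms, and none of its 6 values was whole. Of 4 mast cell markers in the tables, the receptor gene Ms4a2 had 45 and 34 reads in CiLC, 0 in both LC libraries and 19 and 21 in MEF, and its part in the Il1rl1 difference was not tested. The mast cell protease gene Cpa3 had at most 1 read in any library. The list summed to 1.72 to 2.34 CPM in CiLC, 89.9 to 91.7 CPM in LC and 1.09 to 1.10 CPM in MEF, and nearly all of the LC sum was Hdc, which encodes histidine decarboxylase (1550 and 1552 reads in LC).

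Il6, the founding cytokine of the gp130 family, had 57 and 47 reads in CiLC, 563 and 585 in LC, and 37 and 47 in MEF. LC libraries were highest, and CiLC and MEF libraries overlapped. At 2.64 ± 0.366 CPM in CiLC and 33.5 ± 1.27 CPM in LC it was 12.7-fold lower in CiLC (log2 fold change -3.66 ± 0.15 SE, edgeR adjusted p = 7.69e-18). Relative to 2.19 ± 0.358 CPM in MEF, Il6 rose 15.2-fold in LC (edgeR adjusted p = 3.82e-18). Between CiLC and MEF it was not called (log2 fold change 0.27 ± 0.21 SE, edgeR adjusted p = 0.293). This is the gene whose window carried the AP-1, C/EBP and NF-kB letters printed above.

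Lif, which encodes leukemia inhibitory factor, had 15.2 and 18.3 CPM in CiLC, 104 and 108 CPM in LC, and 39.8 and 40.0 CPM in MEF. The order of groups was that of Il1b and Il1rn, without overlap. The fall in CiLC relative to MEF was 2.38-fold (log2 fold change -1.25 ± 0.08 SE, edgeR adjusted p = 2.76e-12). Relative to MEF it rose 2.66-fold in LC (edgeR adjusted p = 7.79e-16), and CiLC lay 6.34-fold below LC (edgeR adjusted p = 6.12e-20).

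Il11, a cytokine that acts on stromal cells, differed less and had few reads. Its estimated reads were not whole in any library, so part of them was assigned by estimation. Its levels were 1.99 and 2.75 CPM in CiLC, 5.73 and 6.16 CPM in LC, and 3.45 and 3.05 CPM in MEF. LC libraries were highest and CiLC libraries lowest, and the CiLC libraries had the widest spread. The gene was 1.82-fold higher in LC than in MEF (log2 fold change 0.87 ± 0.18 SE, edgeR adjusted p = 0.000189) and 2.52-fold lower in CiLC than in LC (edgeR adjusted p = 1.7e-06). CiLC and MEF were not called apart (log2 fold change -0.47 ± 0.21 SE, edgeR adjusted p = 0.0687), but Il11 was called lower in CiLC without CiLC replicate 2 (adjusted p = 0.033, with a range of 0.033 to 1 over 14 settings), again with the spread taken from the other groups.

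Csf3 encodes granulocyte colony-stimulating factor, which drives neutrophil production. It had 5 and 3 reads in CiLC, 609 and 573 reads in LC, and 1 and 0 reads in MEF. The gene was thus abundant in LC libraries and close to absent from the others. Only LC libraries carried Csf3 through the filter, so its calls as higher in LC were favoured in advance. Their adjusted p-values are not independent support. Scaled for library size, the ratio of LC to MEF was 1320, with a counting interval from 237 to 52300 (edgeR adjusted p = 5.97e-20). On the same scale CiLC had 170 times less than LC (counting interval 86 to 395; edgeR adjusted p = 1.03e-19).

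The call of Csf3 as higher in CiLC than in MEF rested on 8 reads against 1 (ratio scaled for library size 7.78, counting interval 1.04 to 345; edgeR adjusted p = 0.0318). It was lost without CiLC replicate 1 (adjusted p = 0.174), without MEF replicate 2 (0.222), with DESeq2 (0.135), without a filter on low counts (0.0567) and when the coefficient of variation was set to 0.1 (0.0524). Over 14 settings its adjusted p ran from 0.0274 to 0.368. Within the 4 libraries of that comparison alone, the gene did not pass the filter.

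Tnf, the gene of tumour necrosis factor, was lower in CiLC and in LC than in MEF, with the same order of groups as Il33. It had 60.8 and 64.6 CPM in CiLC, 13.2 and 11.5 CPM in LC, and 96.3 and 95.1 CPM in MEF. MEF libraries were highest and LC libraries lowest, without overlap. Tnf fell 1.53-fold in CiLC relative to MEF (log2 fold change -0.61 ± 0.05 SE, edgeR adjusted p = 1.64e-09) and 7.75-fold in LC relative to MEF (edgeR adjusted p = 1.75e-20), and was 5.07-fold higher in CiLC than in LC (edgeR adjusted p = 4.87e-18). Of the 13 macrophage markers, 5 were lower and 4 higher in CiLC than in MEF, and their summed level, given above, was lowest in LC. The sum was highest in CiLC, where Lyz2 gave most of it (7571 CPM, against 2660 CPM in MEF). The part of these markers in the Tnf difference was not tested. For each Tnf read there were 0.0578 and 0.051 Il1b reads in CiLC, 2.08 and 2.30 in LC, and 0.108 and 0.112 in MEF, a ratio highest in LC and lowest in CiLC.

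Patterns across the 6 libraries were compared for the 6 genes called in all 3 comparisons, by the root mean square difference of centred log2(CPM + 1) values from 11355 other genes of at least 5 CPM. Cdh2, which encodes N-cadherin, was nearest to both Il1b (0.0682) and Lif (0.082), with Tro second for Il1b (0.0765). Cryab, a small heat shock protein gene, was nearest to Il1rn (0.0642), followed by Spsb1 (0.12), and second for Lif (0.0864). Sirt2 and Lztr1 were nearest to Il33 (0.0169 and 0.0281). Igf2bp3 and Faxc were nearest to Tnf (0.0557 and 0.0624). Tnfrsf9, a receptor of the TNF receptor family, and Ndufa4l2 were nearest to Csf3 (0.109 and 0.142). With 3 groups of 2 libraries, such likeness describes little more than the order and spacing of 3 group means.

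The signalling chains of the IL-1 receptor were higher in CiLC and in LC than in MEF, although the agonist genes differed between those cultures. Il1r1, the signalling receptor, had 305 ± 3.59 CPM in CiLC, 248 ± 0.335 CPM in LC and 87.4 ± 0.993 CPM in MEF. It rose 3.49-fold in CiLC (edgeR adjusted p = 3.86e-19) and 2.84-fold in LC (edgeR adjusted p = 3.04e-18) relative to MEF. Il1rap, the shared partner chain, had 78.8 ± 2.57 CPM in CiLC, 83.7 ± 1.89 CPM in LC and 26.2 ± 3.71 CPM in MEF. It rose 3.01-fold in CiLC and 3.20-fold in LC relative to MEF (edgeR adjusted p = 5.68e-15 and 6.7e-16). Between CiLC and LC, Il1r1 was 1.23-fold higher in CiLC (edgeR adjusted p = 2.55e-06), a call lost when the coefficient of variation was set to 0.1 (adjusted p = 0.0728, range 3.84e-08 to 0.982 over 15 settings), and Il1rap was not called (log2 fold change -0.09 ± 0.06 SE, edgeR adjusted p = 0.201).

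Other IL-1 family receptors and decoys varied. Il1rl2, the IL-36 receptor, had 30.7 ± 0.65 CPM in CiLC, 59.1 ± 2.88 CPM in LC and 19.5 ± 1.54 CPM in MEF, and was called apart in all 3 comparisons. Il18bp, a secreted trap for IL-18, had 3.56 ± 0.279 CPM in CiLC, 26.7 ± 1.78 CPM in LC and 2.93 ± 0.0885 CPM in MEF. It was 9.11-fold higher in LC than in MEF (edgeR adjusted p = 1.07e-16) and not called between CiLC and MEF (edgeR adjusted p = 0.193). Il18rap, a chain of the IL-18 receptor, fell 4.96-fold in CiLC and 4.11-fold in LC relative to 23.2 ± 0.622 CPM in MEF. Sigirr, an inhibitory receptor, had 3 and 5 reads in CiLC, 1 and 2 in LC and 15 and 23 in MEF, and its call as lower in CiLC than in MEF (edgeR adjusted p = 0.00114) was lost with DESeq2 (adjusted p = 0.06, range 5.6e-05 to 0.0697 over 14 settings). The decoy receptor Il1r2, with 6 to 12 reads in a library, and Il18r1, with under 5, did not pass the filter.

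**Figure D4:**
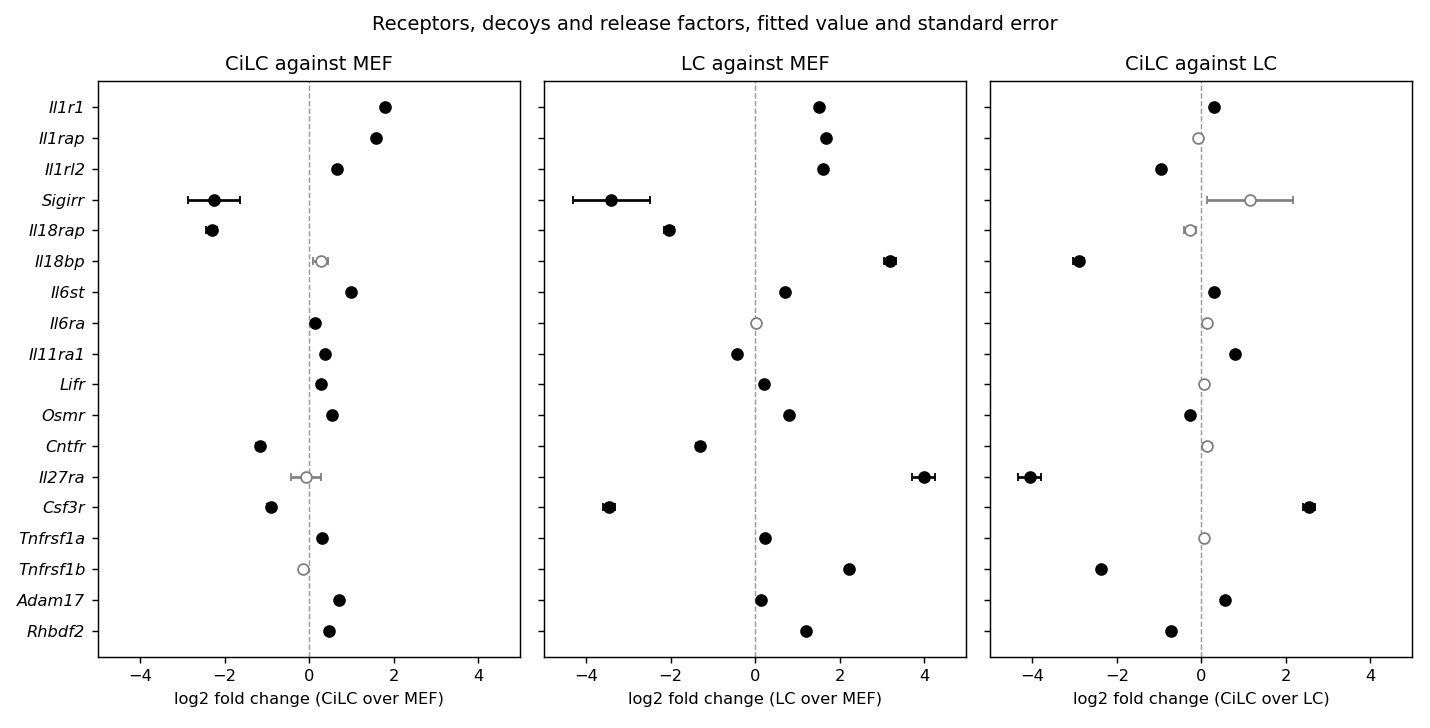
Fitted log2 fold change with standard error (x axis, first group over second) of the 18 tested receptors, decoys and TNF release factors, with filled points for called genes. Il1r1 and Il1rap lie right of 0 in both comparisons with MEF, Csf3r lies at -3.46 and Tnfrsf1b at 2.23 in LC against MEF.

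In the gp130 group, Il6st had 1616 ± 41.2 CPM in CiLC, 1309 ± 61.1 CPM in LC and 806 ± 8.26 CPM in MEF. It rose 2.01-fold in CiLC and 1.62-fold in LC relative to MEF (edgeR adjusted p = 1.68e-14 and 4.91e-12). Osmr, the oncostatin M receptor, rose 1.45-fold in CiLC and 1.73-fold in LC, and Lifr 1.21-fold and 1.16-fold. Il11ra1 was 1.29-fold higher in CiLC than in MEF and 1.34-fold lower in LC than in MEF. Cntfr, the ciliary neurotrophic factor receptor, fell 2.25-fold in CiLC and 2.48-fold in LC. Il27ra, the IL-27 receptor, had 12 and 23 reads in CiLC, 263 and 251 in LC, and 22 and 14 in MEF. Il6ra, the IL-6 binding chain, had 48.1 ± 0.959 CPM in CiLC, 43.8 ± 1.96 CPM in LC and 43.3 ± 2.92 CPM in MEF. Its narrow call as higher in CiLC than in MEF (edgeR adjusted p = 0.0466) was lost without CiLC replicate 1 (0.101), CiLC replicate 2 (0.209), MEF replicate 1 (0.374), LC replicate 1 (0.0599) or LC replicate 2 (0.057), and ranged from 0.0187 to 1 over 15 settings. Between CiLC and LC it was not called (adjusted p = 0.0619), but was called higher in CiLC without MEF replicate 1 (0.0387) or MEF replicate 2 (0.0457), with a range of 0.00321 to 1.

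The receptors of Csf3 and Tnf ran against their ligands in LC. Csf3r had 21.0 ± 0.0797 CPM in CiLC, 3.59 ± 0.182 CPM in LC and 39.6 ± 3.47 CPM in MEF. It was 11-fold lower in LC than in MEF (edgeR adjusted p = 2.73e-18), 1.88-fold lower in CiLC than in MEF (edgeR adjusted p = 5.15e-10) and 5.84-fold higher in CiLC than in LC (edgeR adjusted p = 8.71e-15). Csf3r is a gene of myeloid cells, and the part of macrophage transcripts in its differences was not tested. Tnfrsf1b, the second TNF receptor, had 60.0 ± 1.32 CPM in CiLC, 310 ± 6.18 CPM in LC and 65.9 ± 4.17 CPM in MEF. It rose 4.70-fold in LC relative to MEF (edgeR adjusted p = 7.31e-21) and was not called between CiLC and MEF (edgeR adjusted p = 0.0567), although it was called lower in CiLC without MEF replicate 1 (adjusted p = 0.0179, range 0.0179 to 1).

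Tnfrsf1a, the widely expressed TNF receptor, rose 1.23-fold in CiLC and 1.18-fold in LC relative to MEF, and CiLC and LC were not called apart (edgeR adjusted p = 0.164). Adam17, the protease that sheds TNF, had 268 ± 7.41 CPM in CiLC, 182 ± 1.2 CPM in LC and 165 ± 9.98 CPM in MEF, and rose 1.63-fold in CiLC relative to MEF (edgeR adjusted p = 2.64e-11). Its call as higher in LC than in MEF (adjusted p = 0.0176) was lost without MEF replicate 2 (0.241), LC replicate 1 (0.0832) or LC replicate 2 (0.0506), with a range of 0.00597 to 0.999. Rhbdf2, which carries Adam17 to the cell surface, had 76.4 ± 6.74 CPM in CiLC, 125 ± 3.2 CPM in LC and 54.8 ± 0.718 CPM in MEF, and was called in all 3 comparisons.

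Of 7 further IL-6 family ligands, 2 were higher in CiLC than in MEF and 5 were not called, against 26.1% of all genes higher. In LC against MEF 3 were higher and 2 lower, against 35.7% and 35% of all genes. These counts lie near those shares. Clcf1, which encodes a cytokine of the family that signals through gp130, had 8.51 ± 0.23 CPM in CiLC, 43.7 ± 1.89 CPM in LC and 8.75 ± 0.732 CPM in MEF. Ctf1, the cardiotrophin gene, was 3.15-fold lower in LC than in MEF (edgeR adjusted p = 2.83e-06) and 2.42-fold higher in CiLC than in LC (edgeR adjusted p = 0.000134). Ebi3, a subunit of IL-27, was higher in CiLC than in MEF (1.19-fold, edgeR adjusted p = 0.0176), a call lost without CiLC replicate 2 (0.233), MEF replicate 1 (0.0781) or MEF replicate 2 (0.0631), with a range of 0.00962 to 1. Of the IL-1 family, Il18 had 4.75 ± 0.24 CPM in CiLC, 2.22 ± 0.106 CPM in LC and 2.64 ± 0.541 CPM in MEF, and was higher in CiLC than in LC (edgeR adjusted p = 5.65e-05) and MEF (edgeR adjusted p = 0.000796). Il36g had 17.4 ± 0.588 CPM in CiLC and 13.4 ± 0.191 CPM in LC (edgeR adjusted p = 0.000978).

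Genes that process IL-1 were called in both directions. Of 8, CiLC had 5 higher and 3 lower than MEF, against 26.1% and 25.5% of all genes, and the first count fell without MEF replicate 1. There were 4 and 4 in LC against MEF, against 35.7% and 35% of all genes, and 3 and 3 in CiLC against LC. The medians were 0.30, -0.01 and 0.004 on the log2 scale, and the calls in CiLC against LC were close to the 35% and 35.6% of all genes. Casp4, an inflammatory caspase, had 16.0 ± 0.571 CPM in CiLC, 20.2 ± 0.942 CPM in LC and 3.29 ± 0.648 CPM in MEF. Casp1, which cleaves the IL-1 beta precursor, was 2.75-fold higher in CiLC than in LC (edgeR adjusted p = 1.41e-10). The inflammasome adaptor Pycard was 2.18-fold lower in CiLC than in LC (edgeR adjusted p = 1.22e-08). Capn1, a calpain, was 2.72-fold higher in LC than in MEF and 2.32-fold lower in CiLC than in LC. The sensor genes Nlrp3 and Aim2 fell 1.60-fold and 1.58-fold in CiLC relative to MEF, and Aim2 fell 2.30-fold in LC relative to MEF.

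Among 20 signal transducers of IL-1 and TNF, CiLC had 8 higher and 3 lower than MEF, against 26.1% and 25.5% of all genes tested, and 5 and 1 without CiLC replicate 1, against 20.3% and 20.8% of all genes. The median was -0.01 on the log2 scale, against 0.01 over all genes. There were 9 higher and 4 lower in LC than in MEF, against 35.7% and 35% of all genes. In CiLC against LC there were 6 higher and 11 lower, against 35% and 35.6% of all genes. Without CiLC replicate 1 the count of lower genes in CiLC against LC was 7, and without LC replicate 1 the count of higher genes was 3. Irak3, an inhibitory kinase-like protein of the pathway, had 87.2 ± 3.74 CPM in CiLC, 152 ± 4.39 CPM in LC and 30.9 ± 1.1 CPM in MEF. Relb and Nfkb2, subunits of the noncanonical NF-kB pathway, rose 1.99-fold and 1.60-fold in CiLC and 4.17-fold and 2.40-fold in LC relative to MEF. Rela, the canonical subunit, was 1.72-fold lower in CiLC than in LC (edgeR adjusted p = 1.64e-12). In the gp130 group of 9, CiLC had 4 higher and 2 lower than MEF, with 7 and 2 in LC against MEF, and 3 and 6 in CiLC against LC. The same comparisons had 26.1% and 25.5%, 35.7% and 35%, and 35% and 35.6% of all genes higher and lower. The medians of the group were -0.03, 0.72 and -0.62 on the log2 scale. Jak2 had 111 ± 0.574 CPM in CiLC, 358 ± 11.4 CPM in LC and 63.5 ± 3.72 CPM in MEF. Socs3, the feedback inhibitor that STAT3 induces, had 81.2 ± 2.64 CPM in CiLC, 235 ± 2.11 CPM in LC and 143 ± 6.15 CPM in MEF, and so had the order of groups of Il1b, Il1rn and Lif. The other inhibitor, Socs1, was 2.05-fold higher in CiLC than in MEF. Jak1 was 1.71-fold higher in LC than in MEF.

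Target genes of NF-kB were mostly higher in CiLC than in MEF, while Il1b and Tnf were lower. Of 21 such genes, CiLC had 15 higher and 4 lower, where 26.1% and 25.5% of all genes were called. The median on the log2 scale was 1.05, against 0.01 over all genes tested. In LC, 19 were higher and 2 lower than in MEF (median 1.88, against -0.01), where 35.7% and 35% of all genes were called. In CiLC 1 was higher and 17 lower than in LC (median -0.96, against 0.005), where 35% and 35.6% of all genes were called. Cxcl5, a neutrophil attractant, had 53.4 ± 1.95 CPM in CiLC, 1180 ± 47.3 CPM in LC and 2.11 ± 0.262 CPM in MEF. The matrix protease Mmp3 had 490 ± 3.11 CPM in CiLC, 759 ± 33 CPM in LC and 12.9 ± 2.87 CPM in MEF. Traf1 had 51.1 ± 4.14 CPM in CiLC, 18.3 ± 0.891 CPM in LC and 7.28 ± 1.27 CPM in MEF, and was the target higher in CiLC than in LC. The mitochondrial superoxide dismutase Sod2 was 14.8-fold higher in LC than in MEF. The chemokine Ccl2 was 6.19-fold and the NF-kB inhibitor Tnfaip3 5.06-fold lower in CiLC than in LC.

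Target genes of STAT3 were mostly higher in LC than in MEF, and were called in both directions in CiLC against MEF. Of 14, CiLC had 8 higher and 4 lower than MEF (median 0.55 on the log2 scale), and the lower ones were near the 25.5% of all genes. In LC 13 were higher and 0 lower than in MEF by edgeR and by DESeq2 (median 1.62), and all 14 were lower in CiLC than in LC (median -1.56). The other shares of all genes were 26.1% higher in CiLC than in MEF, 35.7% higher and 35% lower in LC than in MEF, and 35.6% lower in CiLC than in LC. The unadjusted edgeR p of the remaining gene in LC against MEF, Junb, was 0.298. The acute phase gene Saa3 had 197 ± 6.2 CPM in CiLC, 5705 ± 494 CPM in LC and 2.30 ± 0.529 CPM in MEF. Lcn2, a siderophore-binding protein of the acute phase, had 6.25 ± 0.303 CPM in CiLC, 346 ± 15.9 CPM in LC and 0.131 ± 0.0376 CPM in MEF. Haptoglobin (Hp) had 4.55 ± 0.263 CPM in CiLC, 521 ± 9.31 CPM in LC and 1.72 ± 0.0652 CPM in MEF. The protease inhibitor Timp1 was 32.7-fold lower in CiLC than in LC (edgeR adjusted p = 3.13e-26). Saa3 and Lcn2 respond to NF-kB as well, and Bcl3 stands on both lists.

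**Figure D5:**
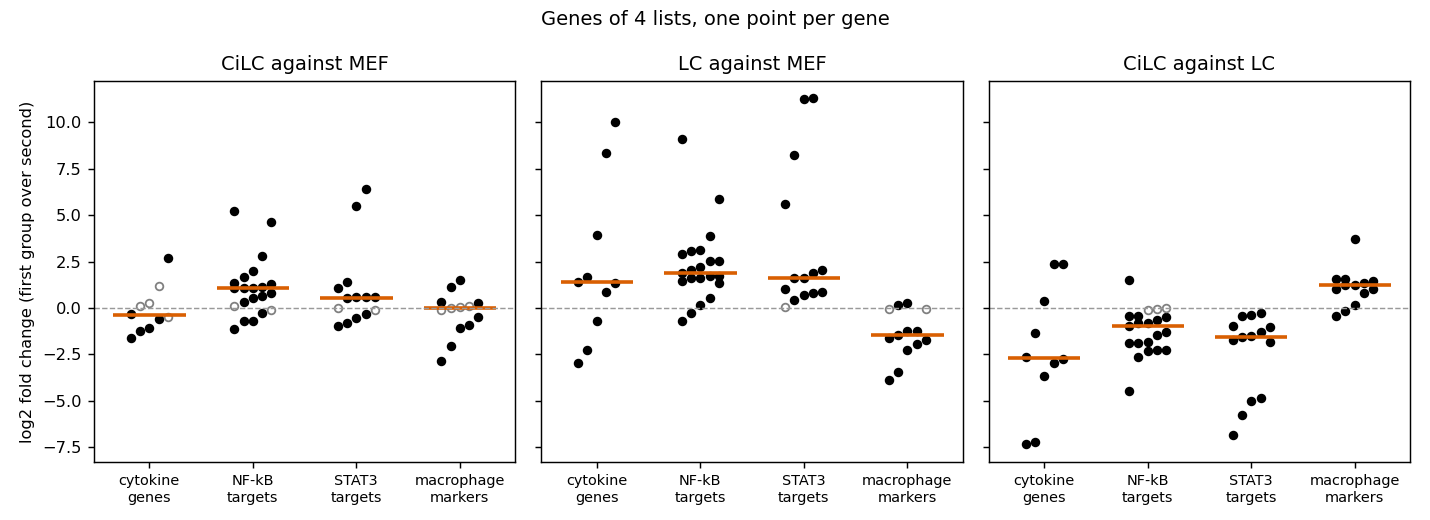
Log2 fold change (y axis, first group over second) of each gene of 4 lists in the 3 comparisons, with filled points for called genes, an orange line at the list's median and a dashed line at the median of all genes tested. In LC against MEF the medians are 1.38 for the cytokine genes (Il1a and Csf3 included), 1.88 for NF-kB targets and 1.62 for STAT3 targets, and -1.45 for macrophage markers.

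Markers of other cells that make or answer these cytokines were low, with exceptions. Neutrophil markers summed to 0.356 to 0.406 CPM in CiLC, 1.97 to 2.06 CPM in LC and 0.104 to 0.157 CPM in MEF. Germ cell markers summed to 3.71 to 4.22 CPM in CiLC, 0.954 to 1.55 CPM in LC and 0.621 to 1.05 CPM in MEF. Lymphocyte markers summed to 3.76 to 4.48 CPM in CiLC, 4.41 to 4.71 CPM in LC and 7.97 to 9.12 CPM in MEF, nearly all from Il7r, with at most 1 read of Cd3e. Dendritic cell markers summed to 16.9 to 17.5 CPM in CiLC, 32.1 to 32.9 CPM in LC and 9.14 to 10.6 CPM in MEF, and Ccr7 had at most 7 reads. Endothelial markers summed to 9.62 to 9.63 CPM in CiLC, 69.2 to 77.0 CPM in LC and 24.3 to 24.8 CPM in MEF, with Cdh5 giving most of the LC sum and Cldn5 at 5 reads or fewer. Epithelial markers summed to 6.91 to 7.73 CPM in CiLC, 4.52 to 5.50 CPM in LC and 19.9 to 21.1 CPM in MEF. The 5 Sertoli cell markers summed to 35.2 to 37.9 CPM in CiLC, 301 to 302 CPM in LC and 17.3 to 18.8 CPM in MEF. The part of these cells in the cytokine differences was not tested.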

How the data were processed

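RNA of 6 libraries was sequenced on a BGISEQ instrument. The authors deposited an estimated count, also called an expected count, for each NCBI gene number and library, with a column header of read counts, and did not scale it for library size. The authors aligned reads with HISAT to mm9, per the submitters' processing notes. Neither the counting tool, the annotation nor the use of strand is given in the sources used here, so overlapping and antisense genes cannot be told apart. Between 32.4% and 32.8% of values in a library were not whole. Symbols came from an NCBI RefSeq table of GRCm38.p6, for 18179 of 18305 gene numbers.

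After rounding, the counts went into edgeR 4.0.16 (R 4.3.3), with filterByExpr (minimum count 10, minimum total 15), TMM scaling and 1 quasi-likelihood fit of all 6 libraries with group as the only term. P-values are two-sided, with Benjamini-Hochberg adjustment over 14581 genes. The common biological coefficient of variation was 3.16%. Libraries of a group differed by more than sampling noise (chi-square per degree of freedom 1.80 in CiLC, 2.94 in LC and 2.77 in MEF), so all were kept. The fit was also run on counts simulated with its own estimated spread, which cannot show whether that spread is too small. Read ratios at low counts carry exact 95% binomial intervals, for counting error only. All 10 genes and every tested receptor are named, and of other pathway lists the 3 called genes with the largest change per comparison, except that some are not reported here. Genes and lists were chosen with earlier results of these data known, and single marker genes after their values were seen. A fit that leaves 1 library in a group assumes that it varies like the libraries of the other groups. Other settings tried included DESeq2 1.42.0 and assumed coefficients of variation.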

Additional observations from a re-analysis of the deposited data

How the results depend on the processing

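When the biological coefficient of variation was set to 0.4 throughout, 0 of the 10 cytokine genes were called lower and 0 higher in CiLC than in MEF, and 4 were called higher in LC than in MEF (Il1a, Il1rn, Il6 and Csf3) and 2 lower (Il1rl1 and Tnf). At that setting 1.84% of all genes were called lower and 2.79% higher in CiLC than in MEF, and 9.94% higher and 7.26% lower in LC than in MEF. The same setting left 4 NF-kB targets and 2 STAT3 targets higher in CiLC than in MEF, and 15 and 8 higher in LC than in MEF. The 1 gene called higher in CiLC than in MEF, Csf3, gave a count of 0 with DESeq2, without a filter on low counts, with the 4 libraries compared alone and when the coefficient of variation was set to 0.1, and counts from 0 to 2 with single libraries left out. The counts of cytokine genes in CiLC against LC stayed within 1.5 times of 3 and 7 in all settings. No cytokine gene changed direction. With single libraries left out, 3 receptor or ligand genes that were not called changed direction. Il27ra in CiLC against MEF had log2 fold changes from -0.62 to 0.31 (0.28 without MEF replicate 1), Clcf1 from -0.13 to 0.048, and Il6ra in LC against MEF from -0.060 to 0.085. Il6ra was at -0.084 in LC against MEF with upper quartile scaling. The cause was not tested. Upper quartile scaling moved the median of all genes in LC against MEF to -0.108 on the log2 scale. Settings on receptors and pathway lists were added after the data were seen.

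The replicate block (replicate number as a factor) left the counts of cytokine genes at 1 higher and 5 lower in CiLC against MEF, 7 and 3 in LC against MEF, and 3 and 7 in CiLC against LC. Of named genes it changed the call of Il6ra in CiLC against LC (edgeR adjusted p = 0.0448). Same-numbered libraries did not deviate together over 11269 genes (Pearson correlations of -0.0351, 0.0338 and 0.0553 across genes, which are not independent replicates). Such correlations cannot show whether same-numbered libraries shared a source or a day, so pairing remains unknown. With 2 libraries a group, precision is limited most for Il1a and Csf3 outside LC.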
